A study of Homo sapiens with 32 samples.

Results

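The 4000 SP1 peak summits and the 4000 NRF1 peak summits with the highest scores were compared with each other. A summit is the base of highest signal within a called peak, and the members of each set were selected on the score that the authors deposited with it, among summits on chromosomes 1 to 22 and X. The SP1 set held 4000 of 126181 listed summits (3.17%) and the NRF1 set 4000 of 39180 (10.2%). The score is a significance on a −log10 scale, either of p or of q. SP1 scores ran from 17292.2 down to 687.452 at the last member, with 686.69 at the first summit outside the set. NRF1 scores ran from 40435.1 down to 328.743, a value shared by the last summit inside and the first outside, so that the order of the file decided between those 2. The median score was 1162 in the SP1 set against 14 in the whole SP1 list, and 2870.9 in the NRF1 set against 6.16 in the whole NRF1 list. These scores chose the members and are given as a description. They were not compared between the antibodies, because the scale of a score moves with depth and with the number of reads a list was called from. The 8000 members together were a small part of the 288104 summits in the 4 lists used here.

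SP1 is a zinc finger transcription factor that binds GC boxes, short runs of G and C found at the promoters of many widely expressed genes. NRF1, nuclear respiratory factor 1, binds as a dimer to a palindrome rich in GC, and is known for its sites at genes of the respiratory chain, mitochondrial transcription and protein synthesis. Both factors are known mainly from promoters inside CpG islands, stretches of DNA dense in CG dinucleotides. The name Nrf1 is also used for NFE2L1, a different factor that binds antioxidant response elements, and the sequences at the summits therefore bear on which protein a label means.

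All cells were of 1 clone (HEK_CloneZD29) of the established human kidney line HEK293T. Its ZNF143 is fused to a dTAG degron, a domain that marks the protein for proteasomal breakdown once the small molecule dTAGV-1 is added. The 16 samples behind the sets fell into 4 groups of 4: untreated SP1, SP1 after 30 minutes of 50 nM dTAGV-1, untreated NRF1, and NRF1 after 30 minutes of 50 nM dTAGV-1. The untreated cells carry the degron as well, and the mock precipitation has no list among those analysed here. Chromatin was crosslinked, sheared and recovered with an antibody against SP1 or NRF1, and the recovered DNA was sequenced. Per the labels, SP1 was precipitated beside the HA tag and a mock, and NRF1 beside YY1, so the antibody and the series of precipitations cannot be told apart. The measurements were 1 list per antibody, with treated and untreated samples joined. No value per sample, and so no spread between replicates and no test between groups, could be had, and the read depth of the lists is unknown. Shares carry Wilson 95% intervals, which cover counting error only, and neighbouring summits are not independent: 792 SP1 and 294 NRF1 members shared a peak with another member of their set.

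The sequences of 6 promoter sites show what the classes described below look like. They were read from hg38 on the strand of the gene and run 5′ to 3′, and no window overlaps an annotated exon. Capitals mark the 8-letter SP1 motif GGGGCGGG, the 8-letter NRF1 motif GCATGCGC and the CCAAT box, on either strand. Positions are given from the 5′ end of the gene, with negative values upstream. The first 3 are the best-ranked SP1 members at a promoter that held the SP1 motif and had no NRF1 summit of any score within 100 bp, and each window reaches 40 bp to either side of the summit.
STK17A, chr7:43582964-43583044, plus strand, SP1 rank 11, from 206 to 286 bp: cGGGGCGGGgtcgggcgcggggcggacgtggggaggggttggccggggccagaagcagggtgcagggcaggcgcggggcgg
NLK, chr17:28041502-28041582, plus strand, SP1 rank 103, from −235 to −155 bp: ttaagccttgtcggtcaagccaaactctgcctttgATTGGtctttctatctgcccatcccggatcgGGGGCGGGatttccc
ZNF687, chr1:151281358-151281438, plus strand, SP1 rank 118, from −260 to −180 bp: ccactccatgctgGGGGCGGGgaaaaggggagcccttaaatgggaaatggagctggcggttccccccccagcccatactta
The STK17A site, at a gene for a serine/threonine kinase, is rich in G, while the NLK site joins a CCAAT box on the opposite strand to a GC box. Of 793 SP1 members at promoters with no NRF1 summit within 100 bp, 115 held the 8-letter motif in such a window, and 72 of those lay clear of exons. The next 2 are NRF1 members among the best-ranked, chosen in the same way, with the NRF1 motif and no SP1 summit of any score within 100 bp.
COX6A1, chr12:120437869-120437949, plus strand, NRF1 rank 41, from −221 to −141 bp: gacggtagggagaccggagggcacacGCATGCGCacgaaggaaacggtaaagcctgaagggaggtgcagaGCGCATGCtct
ABHD10, chr3:111978922-111979002, plus strand, NRF1 rank 57, from −88 to −8 bp: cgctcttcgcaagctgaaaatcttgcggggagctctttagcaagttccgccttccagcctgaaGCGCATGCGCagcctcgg
COX6A1, a subunit of respiratory complex IV, carried 2 copies of the NRF1 motif in the window. Of 1431 NRF1 members of this kind 375 held the motif, and 130 of those lay clear of exons. Only 1 of 123 SP1 and NRF1 pairs at promoters held both 8-letter motifs, and its window overlapped an exon. The pair shown next was therefore taken, after the values were seen, with the 6-letter cores GGGCGG and CATGCG in capitals. With those cores 11 pairs held both, and 2 lay clear of exons.
RPS19BP1, chr22:39532805-39532902, minus strand, SP1 rank 3946 and NRF1 rank 1010, summits 37 bp apart: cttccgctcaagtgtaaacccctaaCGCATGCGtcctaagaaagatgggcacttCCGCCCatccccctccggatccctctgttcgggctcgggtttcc
At RPS19BP1 the NRF1 summit lay upstream of the SP1 summit, at −111 and −74 bp.

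The strongest SP1 and NRF1 summits were mostly different sites. Within 100 bp of each other lay 192 members of each set, 4.8% (4.18 to 5.51) of 4000. The share moved with the limits chosen, to 1.6% for the 2000 highest summits of each list and 14.7% for the 8000 highest, and to 2% of SP1 members within 50 bp and 10.2% within 250 bp. Over all SP1 summits of the list, 1.48% had an NRF1 member within 100 bp, and over all NRF1 summits 3.87% had an SP1 member. The share did not fall steadily with rank, and the highest 4000 were not the summits that met the other set most often. SP1 summits ranked 4001 to 8000 met the NRF1 set in 7.08% of cases, the next bin of 4000 in 7.25% and the one after in 7.1%. NRF1 summits ranked 4001 to 8000 met the SP1 set in 8.53%. The intervals of those bins did not overlap that of the highest bin. In the NRF1 list this went with a falling share of promoter summits, which was 66.8% in the highest bin and 50.9% in the next, while in the SP1 list the promoter share was 36.1% and 38.8%. The part of promoter location in these shares was not tested.

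**Figure D1:**
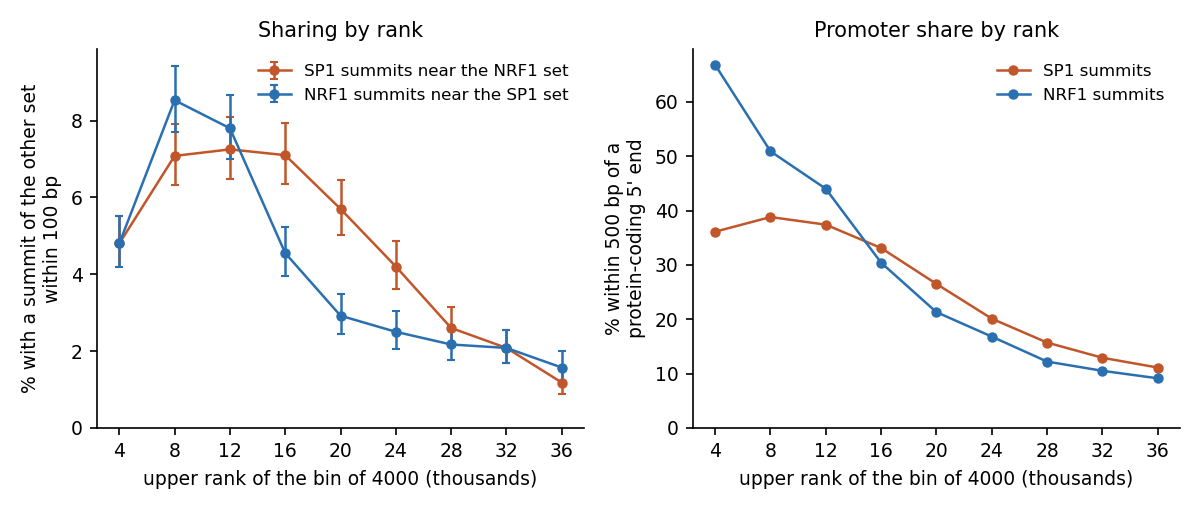
Left, the share of summits with a member of the other factor's set of 4000 within 100 bp, in bins of 4000 summits by rank, with Wilson 95% intervals as bars; right, the share of the same summits at promoters. Both sharing curves peak after the highest bin, at 7.25% for SP1 and 8.53% for NRF1, against 4.8% in the highest bin.

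Wider distances added partners, though most members still had none. An NRF1 member lay within 200 bp of 367 SP1 members, within 500 bp of 532 and within 1000 bp of 592. Weaker summits of the other factor were more frequent. Of the SP1 set, 1320 members had an NRF1 summit below the set within 100 bp, at a median rank of 12093.5 of 39180, and 2488 (62.2%, 60.7 to 63.7) had none of any score. Of the NRF1 set, 1668 had a weaker SP1 summit, at a median rank of 15632.5 of 126181, and 2140 (53.5%, 52 to 55) had none. At promoters, windows reaching 500 bp to either side of the 5′ end of a protein-coding gene, the share without any partner was 54.8% of 1446 SP1 members and 53.6% of 2670 NRF1 members. At distal sites, over 10 kb away from the 5′ end of every protein-coding gene, it was 69.6% of 1861 SP1 members and 53.8% of 654 NRF1 members. The same shares were not taken over the whole lists, which differ in length. Whether members lacked a partner more or less often than other summits is therefore not shown.

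Unshared members of the sets lay in different parts of the genome. At promoters were 1322 of 3808 unshared SP1 members (34.7%, 33.2 to 36.2) and 2546 of 3808 unshared NRF1 members (66.9%, 65.3 to 68.3). Over the whole lists the same shares were 9.83% for SP1 and 27.3% for NRF1. The 192 shared SP1 members, 124 of them at promoters (64.6%, 57.6 to 71), had an interval that overlaps that of unshared NRF1 members. Introns outside these windows held 1425 unshared SP1 members (37.4%) and 486 unshared NRF1 members (12.8%). At distal sites lay 1842 unshared SP1 members (48.4%), 635 unshared NRF1 members (16.7%) and 19 shared sites (9.9%). The start of a gene that is not protein-coding was nearby for 6.78% of unshared SP1 and 8.06% of unshared NRF1 members.

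Base composition followed the same division. The 101 bases centred on unshared NRF1 summits held 70% ± 8.18 G and C (SD over 3808 sites), with 11.9 CG dinucleotides on average, and the content was 70.3% at promoters and 68.5% at distal sites. Unshared SP1 summits held 53.3% ± 14, with 5.1 CG dinucleotides. This wide spread joined promoter sites at 63.2% ± 10.2 (1322 sites) and distal sites at 45.1% ± 11 (1842 sites), which had 8.61 and 2.22 CG dinucleotides. Shared SP1 summits stood between the unshared classes, at 66.3% ± 9.07 over 192 sites. Distal NRF1 members thus had the composition of promoter NRF1 members, whereas distal SP1 members were lower than promoter SP1 members by more than the SD of either class.

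Shared sites had no single spacing. The 192 pairs, in which an SP1 and an NRF1 member were each other's nearest, lay a median of 58 bp apart, with quartiles at 28 and 79 bp. This median moved with the limit for sharing, to 23 bp within 50 bp and 107 bp within 250 bp, and so is no fixed trait of the sites. Within 10 bp lay 26 pairs (13.5%), of which 4 had both summits on the same base, and 112 pairs were over 50 bp apart. Counts per 10 bp were 25 in the first bin, between 12 and 16 from 10 to 49 bp, and between 20 and 24 from 50 to 100 bp. Summits over 50 bp apart were thus the larger part of what the 100 bp limit counts as shared.

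The order along the gene was mixed. Among 123 pairs at promoters, the SP1 summit was upstream in 66 and the NRF1 summit in 53, with 4 on the same base, so that SP1 was upstream in 55.5% (46.5 to 64.1). The interval includes 50%, and the share was 46% (23 of 50) with pairs limited to 50 bp and 65% (13 of 20) among the 2000 highest summits of each list. Where SP1 was upstream the summits lay a median of 62 bp apart, and where NRF1 was upstream 46 bp. Over 20 bp apart were 95 of the pairs, of which 56 had SP1 upstream. At the level of genes, 432 protein-coding genes had a member of both sets within 500 bp of the 5′ end, from 357 distinct pairs of summits. In 214 of these genes the highest SP1 member was upstream of the highest NRF1 member, in 214 it was downstream, and in 4 both fell on the same base (50%, 45.3 to 54.7). Promoters from which genes start in both directions enter once per gene with opposite orders, and leaving such genes out gave 51.1%. Within 250 bp of the 5′ end in place of 500 bp, SP1 was upstream in 58.3% (52.3 to 64) of 266 genes with distinct positions, an interval above 50%. The distance between the highest members had quartiles of 84, 158 and 250 bp, and 133 genes (30.8%) had them within 100 bp.

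**Figure D2:**
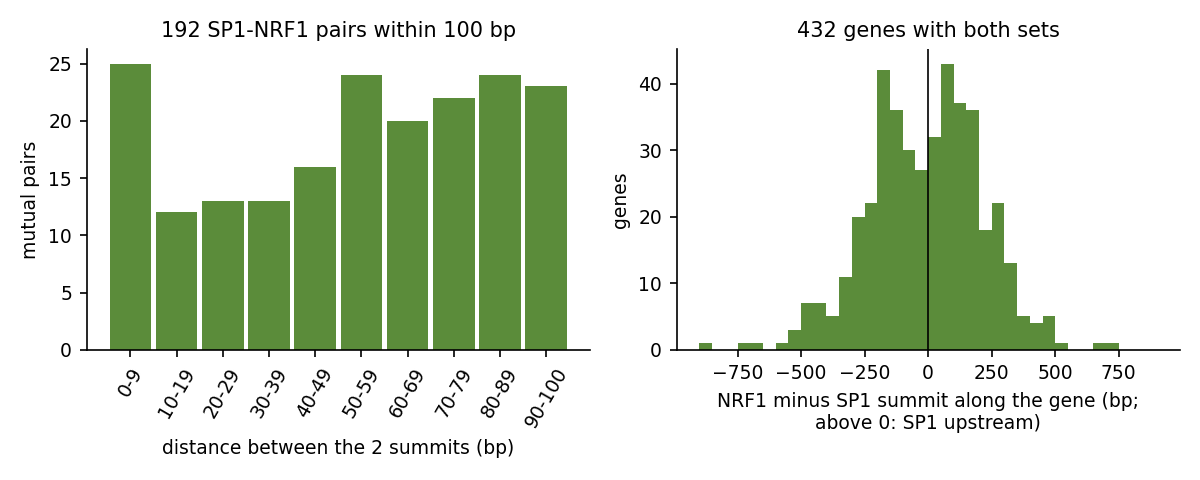
Left, the number of mutual SP1 and NRF1 pairs per 10 bp of distance between their summits (the last bin also holds 100 bp); right, the number of genes per 50 bp of the position of the highest NRF1 member minus that of the highest SP1 member along the gene. The 192 pairs fill every bin up to 100 bp, and the 432 genes lie on both sides of 0 with 214 on each side.

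The sets differed in where they lay at gene starts. The highest SP1 member of a gene lay at −75 bp in the median (quartiles −140 and −6, 1667 genes). The highest NRF1 member lay at −34 bp in the median (quartiles −102 and 16, 3057 genes). Between 150 and 50 bp upstream were 39.6% of the SP1 genes and 27% of the NRF1 genes, and 76% and 68.5% respectively were upstream at all. In the 432 genes with both, the medians were −76.5 bp for SP1 and −45.5 bp for NRF1, close to those of each set alone. The middle part of the NRF1 positions was wider in these genes, with quartiles of −183.2 and 27.75 bp, and 19.7% lay between 150 and 50 bp upstream.

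**Figure D3:**
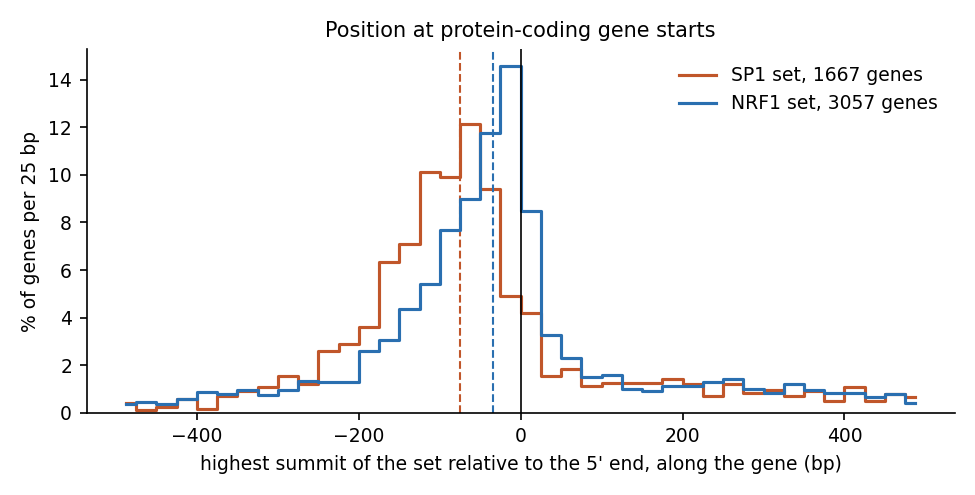
Share of genes, per 25 bp, by the position of the highest member of a set relative to the annotated 5′ end along the gene, with dashed lines at the medians. SP1 members centre near −75 bp, and NRF1 members near −34 bp, with a peak just upstream of the 5′ end.

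The NRF1 motif was frequent in the NRF1 set and nearly absent from unshared SP1 members, a class that leaves out SP1 members near the NRF1 set. A copy of GCATGCGC within 50 bp was found at 985 of 3808 unshared NRF1 members (25.9%, 24.5 to 27.3) and at 3 of 3808 unshared SP1 members (0.0788%, 0.0268 to 0.231). Windows of the same length 400 bp to either side held it in 0.328% and 0.289%, and windows on all 19970 protein-coding 5′ ends in 2%. Shared sites held it in 36 of 192 windows at the NRF1 summit (18.8%, 13.9 to 24.9) and in 11 of 192 at the SP1 summit (5.73%, 3.23 to 9.97). Distal NRF1 members had it as often as promoter members or more so, at 31.5% (28 to 35.2) against 24.5% (22.9 to 26.3). None of the 1842 distal unshared SP1 members had it (upper limit 0.208%). The antioxidant response element TGACNNNGC of NFE2L1 was present at 5.36% of unshared NRF1 members, 4.14% of their flanks and 5.47% of gene starts. The interval of the first of these 3 shares, 4.69 to 6.12%, lies above the share of the flanks and includes that of the gene starts.

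The SP1 motif did not separate the sets. GGGGCGGG was found at 360 of 3808 unshared SP1 members (9.45%, 8.56 to 10.4) and at 638 of 3808 unshared NRF1 members (16.8%, 15.6 to 18), a larger share. At promoters alone the shares were 18.1% (16.1 to 20.2) for SP1 and 17.3% (15.9 to 18.8) for NRF1, with overlapping intervals, against 6.92% and 6.19% in their flanks and 13.4% of all gene starts. At distal SP1 members it was 2.39%, against 1.33% in the flanks. Shared SP1 summits had it in 22.4% (17.1 to 28.8). The shorter core GGGCGG was present at 44.3% of unshared promoter SP1 members and 44% of unshared promoter NRF1 members. Their flanks held it in 23.8% and 21.6%, and all gene starts in 32.6%. Over all unshared members the shares were 24.1% for SP1 and 42.7% for NRF1.

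What set promoter SP1 members apart was the CCAAT box, the site of the trimeric factor NF-Y. This motif was added to the search with earlier values known. It was found at 655 of 1322 unshared promoter SP1 members (49.5%, 46.9 to 52.2), 9.42% of their flanks and 12.3% of all gene starts. Unshared promoter NRF1 members had it in 11.1% (9.95 to 12.4), against 8.39% in the flanks. Distal SP1 members had it in 16.5%, against 13.5% in the flanks. At shared sites it was present in 30.2% of windows at the SP1 summit and 20.8% at the NRF1 summit. The CCAAT copies lay close to the SP1 summit, at a median of 14 bp, where GC boxes lay at 22.5 bp. From the NRF1 summits of NRF1 genes the CCAAT copies lay at 27 bp and the GC boxes at 24.5 bp. The GC boxes thus lay at a similar distance from the summits of both sets. Along the gene the 815 SP1 genes with a CCAAT box had it at a median of −81 bp, and 52.6% of copies were on the strand of the gene. In the 306 SP1 genes with the SP1 motif it lay at −62.5 bp, 50% on the strand of the gene. In the 758 NRF1 genes with the NRF1 motif it lay at −22.5 bp, 9.5 bp from the summit, with 48.8% on the strand of the gene. Whether SP1 itself or another protein at the same sites gave the signal at CCAAT boxes was not tested.

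**Figure D4:**
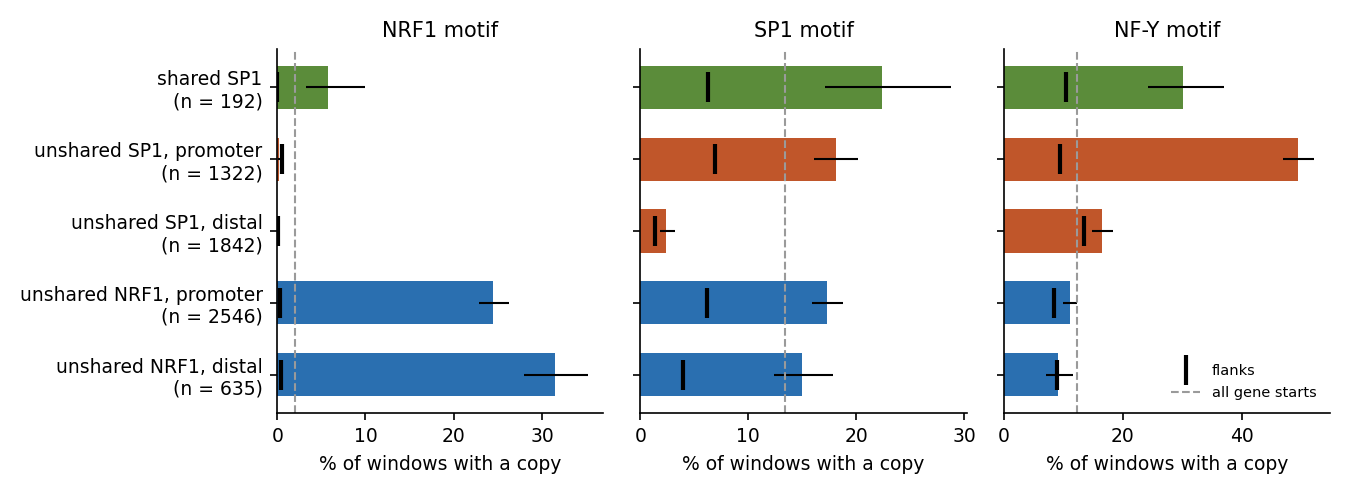
Share of 101-bp windows that hold a copy of the NRF1 motif, the SP1 motif or the NF-Y motif (CCAAT box), by class of summit, with Wilson 95% intervals as thin lines, flanking windows as black ticks and all protein-coding 5′ ends as a dashed line. The NRF1 motif is near 0 at unshared SP1 members and at 5.73% of shared ones. The SP1 motif is alike at unshared promoter members of both sets, and the NF-Y motif reaches 49.5% at unshared promoter SP1 members.

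A count of all words of 6 letters was made without a choice of motif. The words that favoured unshared NRF1 over unshared SP1 members most were CTGCGC (63.3% against 6.22%), TGCGCA (44.7% against 0.84%) and CGCGCA (46.4% against 4.15%). None of these 3 words lies wholly within GCATGCGC on either strand, but words can overlap its ends. In the ABHD10 window printed above, TGCGCA and GCGCAG, which is CTGCGC on the other strand, both begin inside the motif copy and run past it. Exact copies of the 8 letters may therefore miss other forms of the NRF1 site. The word ATGCGC, at place 6 (36.4% against 1.89%), does lie within it. Those that favoured SP1 were AATAAA (14.8% against 1.18%), CATAAA (14.2% against 0.683%) and ATAAAT (13.8% against 0.473%). These words rich in A and T belonged to the distal members. At 1842 distal SP1 members CATAAA was present in 23.6%, against 9.36% of flanks, and ATAAAC in 18%, against 7.93%. At promoter SP1 members the leading words against the flanks were ATTGGC (30.8% against 3.03%) and CCAATC (28% against 2.95%), both of which hold the CCAAT box, followed by CCGCCC, the GC box. The letters of the TATA box, TATAAA, were present at 15.1% of distal SP1 members and 11.3% of their flanks. At unshared distal NRF1 members the shares were 0.157% and 3.54%, and unshared promoter SP1 members had the word in 2.42%. Distal SP1 members also held the AP-1 site TGANTCA in 6.3%, against 3.18% of flanks.

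The lists of YY1 and ZNF143 summits from the same cells were not used to choose the members. YY1 is a zinc finger factor of promoters and enhancers, and ZNF143 is the zinc finger protein that carries the degron. A YY1 summit of any score lay within 100 bp of 69.8% (68.3 to 71.3) of unshared SP1 members, 55.7% (48.7 to 62.6) of shared SP1 members and 25.6% (24.2 to 27) of unshared NRF1 members. Over all SP1 summits the share was 40.5% and over all NRF1 summits 30.6%. It was highest at unshared distal SP1 members, 87.4% (85.8 to 88.8), against 46.6% (43.9 to 49.3) at unshared promoter SP1 members. Shared SP1 members, 64.6% of them at promoters, stood between these. Unshared promoter NRF1 members had a YY1 summit in 24.7% (23 to 26.4). With the 4000 highest YY1 summits alone the shares of distal and promoter SP1 members changed places, to 9.17% and 19.6%. The partners of distal SP1 members were thus mostly weaker YY1 summits. The order of unshared and shared SP1 members turned as well, to 13% (11.9 to 14.1) and 21.9% (16.6 to 28.2). The YY1 motif AANATGGCG was present at 0.217% of distal unshared SP1 members, 0.244% of their flanks and 2.37% of gene starts. Whether YY1 itself gave the YY1 summits at these distal sites was not tested. A ZNF143 summit of any score lay within 100 bp of 62.5% (55.5 to 69) of shared SP1 members, 50.1% (48.5 to 51.7) of unshared SP1 members and 25.7% (24.3 to 27.1) of unshared NRF1 members, against 6.9% of all SP1 and 12.1% of all NRF1 summits. The order of the unshared classes turned with the 4000 highest ZNF143 summits, to 9.85% for SP1 and 12.1% for NRF1, while shared SP1 members kept the largest share at 29.2%. Of distal unshared SP1 members 50.4% had a ZNF143 summit of any score. An exact copy of the ZNF143 motif was at 0.543% (0.295 to 0.996) of them and 0.326% of their flanks.

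At genes, the SP1 set marked 1667 of 19970 protein-coding starts (8.35%), the NRF1 set 3057 (15.3%) and both sets 432 (2.16%). This left 1235 genes with SP1 members alone and 2625 with NRF1 members alone. These counts depend on the size of the sets: with the 2000 highest summits of each list 97 genes had both, 698 SP1 alone and 1589 NRF1 alone. With the 8000 highest, 1859 had both, more than the 1577 with SP1 alone, and 3421 had NRF1 alone. Few were free of the other factor at any score: 116 SP1 genes had no NRF1 summit and 71 NRF1 genes had no SP1 summit within 500 bp, and 11807 genes had an SP1 summit and 9643 an NRF1 summit of some score. The weaker NRF1 summit at 1119 SP1 genes lay a median of 101 bp from the SP1 member, and the weaker SP1 summit at 2554 NRF1 genes 108 bp from the NRF1 member. Promoters shared with a gene on the other strand whose 5′ end lies within 1000 bp made up 13.4% of all genes, 28.7% of SP1 genes, 25.7% of NRF1 genes and 33.8% of genes with both.

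The genes with both sets were described by the motifs at the summits of each set, and whether a gene held both motifs was not counted. At their SP1 summits the CCAAT box was present in 176 of 432 (40.7%, 36.2 to 45.4), against 51.7% (49 to 54.5) in genes with SP1 alone. At their NRF1 summits the NRF1 motif was present in 90 (20.8%, 17.3 to 24.9), against 25.4% (23.8 to 27.1) in genes with NRF1 alone. The NRF1 motif at the SP1 summit was found in 12 of the 432 genes and in 1 of the 1235 with SP1 alone. Genes with SP1 alone lack an NRF1 member by definition, so these 2 counts only describe the classes. By the sum of the 2 ranks the first genes with both were ELP2, a subunit of the Elongator complex, and SLC39A6, a zinc transporter, which start from 1 promoter in opposite directions. Their SP1 member had rank 119 and a score of 4899.1, and their NRF1 member rank 84 and a score of 16147.8, 105 bp away. Read along ELP2 the NRF1 summit was upstream, at −31 against 74 bp, and read along SLC39A6 the SP1 summit was, at −133 against −28 bp. PCDH9, a protocadherin, followed with SP1 at −38 bp (rank 213) and NRF1 at −127 bp (rank 105). At MYCBP2, a ubiquitin ligase, SP1 lay at −139 bp (rank 373) and NRF1 at −36 bp (rank 44). At PPP6R1, a regulatory subunit of protein phosphatase 6, SP1 lay at −323 bp (rank 479) and NRF1 at −109 bp (rank 103).

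Among SP1 genes without any NRF1 summit, QRICH1 had its summit at −72 bp (rank 87, score 5348.9), SPATC1L at −123 bp (rank 128) and USF3 at −169 bp (rank 189). KLF12, a zinc finger factor of the SP and KLF family, had rank 210 and its summit at 71 bp. BOLA2, at rank 260, belongs to a duplicated pair, and how reads were divided between the copies is not known. Among NRF1 genes without any SP1 summit, CDC7, a kinase that starts DNA replication, was first, with rank 45, a score of 18209.4 and its summit at 16 bp. RFX1 had its summit at 354 bp (rank 72) and HEXIM1, an inhibitor of the elongation factor P-TEFb, at −72 bp (rank 117).

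Several lists of mitochondrial genes held more NRF1 than SP1 members, and the lists of cholesterol synthesis and of histones more SP1 than NRF1 members. The lists are small, and their shares are to be read against 8.35% of all genes for SP1 and 15.3% for NRF1, since NRF1 members marked more genes in all. All genes include many with no summit of any score. Of 9643 genes with an NRF1 summit 3057 had a member, and of 11807 with an SP1 summit 1667 had one. The lists were not compared with these narrower backgrounds. Of 80 mitochondrial ribosomal protein genes, 28 (35%, 25.5 to 45.9) had an NRF1 member and 9 (11.2%, 6.03 to 20) an SP1 member. For respiratory complex I the counts were 15 and 5 of 37, and for complexes II to V 17 and 7 of 50. For mitochondrial import they were 12 (38.7%) and 7 (22.6%) of 31, and both shares exceeded those among all genes. Of 15 genes that maintain and transcribe mitochondrial DNA, 8 (53.3%, 30.1 to 75.2) had an NRF1 member, 2 an SP1 member and none both. The NRF1 genes were led by TK2, mitochondrial thymidine kinase, with NRF1 at rank 112 on the 5′ end itself, and by POLRMT, the mitochondrial RNA polymerase, at rank 118 and −30 bp. Other genes led by NRF1 members were TOMM20, an import receptor (rank 15, −100 bp), and SDHA, a subunit of complex II (rank 96, −83 bp). At all 4 an SP1 summit was also listed, at ranks between 8173 and 28110. POLG, the catalytic subunit of the mitochondrial DNA polymerase, had the opposite pattern, with SP1 at rank 1808 and NRF1 at rank 9913, while its partner subunit POLG2 had NRF1 at rank 923 and SP1 at rank 12899.

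Against 15.3% of all genes, NRF1 members were also frequent at genes of protein synthesis and of chromosome upkeep. They marked 21 of 55 translation initiation factor genes (38.2%), where SP1 marked 7, and 17 of 44 heat shock and chaperonin genes, where SP1 marked 7. Both sets exceeded their shares among all genes at cytosolic ribosomal protein genes, 20 (25.3%, 17 to 35.9) for SP1 and 25 (31.6%, 22.4 to 42.5) for NRF1 of 79. The 5 ribosomal protein genes with both had a median distance of 37 bp between the summits. Aminoacyl-tRNA synthetase genes had 11 SP1 and 14 NRF1 genes of 39. NRF1 marked 16 of 44 replication genes and 10 of 30 repair genes, and SP1 9 and 4. Of 39 genes of the lysosome and its proton pump, 14 had an NRF1 member and 4 an SP1 member. Among the remaining lists, proteasome subunits had 9 NRF1 and 5 SP1 genes of 39, the spliceosome 16 and 10 of 44, and autophagy 9 and 5 of 28. RNA polymerase subunits had 8 of 34 in each set and glycolysis 3 of 17 in each. Zinc finger genes of chromosome 19 were below the background for SP1, with 9 of 246 (3.66%, 1.94 to 6.81), while 47 (19.1%, 14.7 to 24.5) had an NRF1 member.

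Of 25 genes of cholesterol synthesis and uptake, 15 (60%, 40.7 to 76.6) had an SP1 member and 6 (24%, 11.5 to 43.4) an NRF1 member. SREBF2, the regulator of the pathway, had SP1 at rank 57 and −132 bp and NRF1 at rank 4616. MSMO1, a sterol demethylase, had SP1 at rank 232 and −134 bp and NRF1 at rank 8387. HMGCS1, the synthase before the rate-limiting step, had SP1 at rank 414 and NRF1 at rank 19439. ACAT2 (SP1 rank 1481, NRF1 rank 284) and MVD (519 and 2268) had both. LSS and DHCR7 had NRF1 members at ranks 1555 and 2019 and SP1 summits below the set.

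Of 68 histone genes expressed in S phase, 42 (61.8%, 49.9 to 72.4) had an SP1 member and 18 (26.5%, 17.4 to 38) an NRF1 member, and 17 had both. Many of these genes are transcribed from a promoter that they share, and the 42 genes rested on 32 SP1 summits and the 18 genes on 11 NRF1 summits. The SP1 and NRF1 summits at the 17 genes were a median of 262 bp apart. H2AC12 and H2BC12, a divergent pair, shared an SP1 member of rank 109 and an NRF1 member of rank 3709, 291 bp apart. H2AC18 and H2AC19 had SP1 at ranks 157 and 163 and NRF1 at ranks 2601 and 2618 with nearly the same offsets, and these near-identical copies are uncertain as separate observations.

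In 3 further lists of regulators, SP1 members were more frequent than NRF1 members. In the SP and KLF family 6 of 27 genes (22.2%, 10.6 to 40.8) had an SP1 member and none an NRF1 member (upper limit 12.5%). SP2 led with SP1 at rank 6 and −87 bp, and the SP1 gene itself had an SP1 member at rank 95 and −347 bp. SP3, which encodes a close relative, had SP1 below the set, at rank 8354, and no NRF1 summit. Of 25 immediate-early and growth regulators, 6 (24%) had an SP1 member, among them JUN (rank 533, −169 bp) and FOS (rank 1109, −185 bp), and FOSB alone had an NRF1 member, at rank 439. Of 39 HOX genes, which set position along the body axis, 7 (17.9%, 8.98 to 32.7) had an SP1 member and 1, HOXC13, an NRF1 member. None of 415 olfactory receptor genes, which are silent in most tissues, had a member of either set (upper limit 0.917%).

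**Figure D5:**
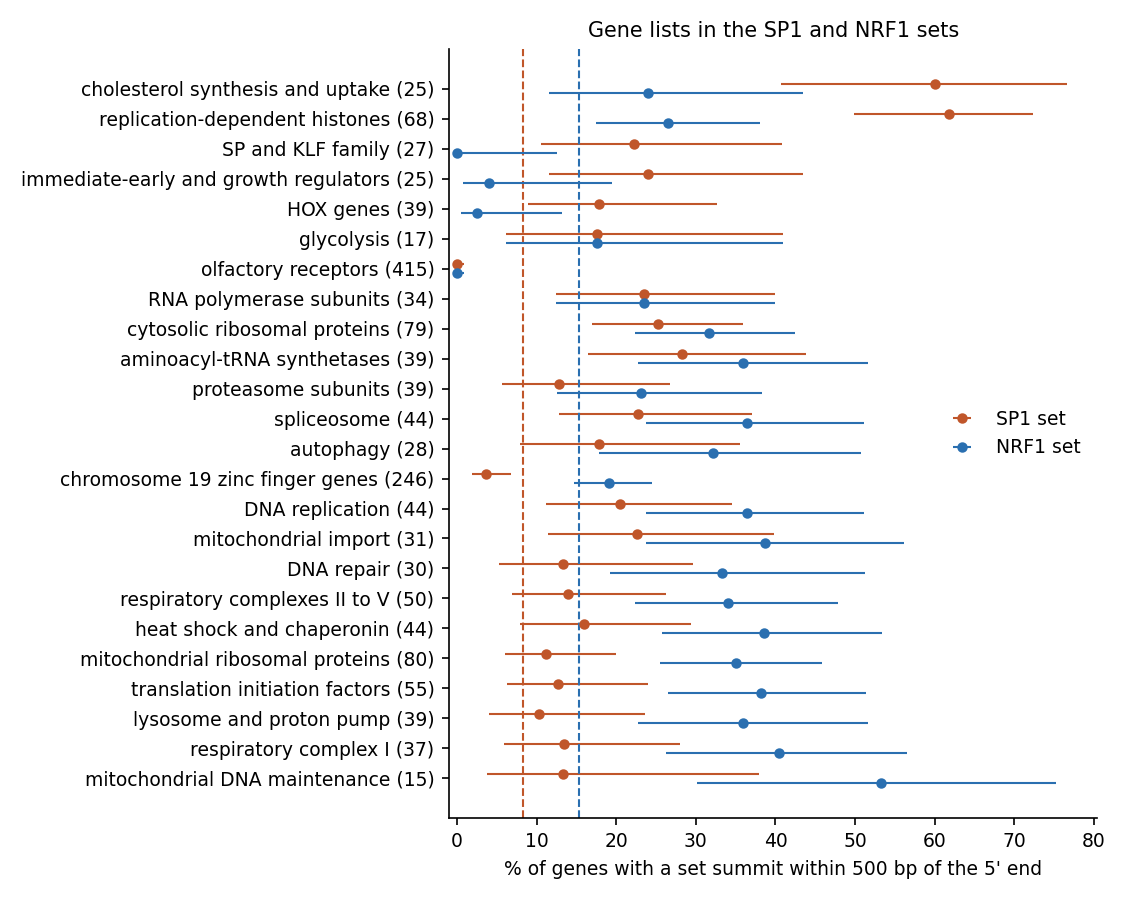
Share of the genes of each list (number of genes in parentheses) with an SP1 or NRF1 member within 500 bp of the 5′ end, with Wilson 95% intervals as bars and dashed lines at the shares among all protein-coding genes, 8.35% and 15.3%. Cholesterol and histone genes lie farthest to the SP1 side, and genes of mitochondrial DNA maintenance and complex I farthest to the NRF1 side.

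Genes long known as targets of these factors were checked one by one. CYCS, cytochrome c, had both, with NRF1 at rank 386 and −198 bp and SP1 at rank 1365 and −115 bp, 83 bp apart. TFAM, which packages mitochondrial DNA, had NRF1 at rank 1522 and −2 bp and SP1 at rank 15373 and 88 bp. TFB1M and TFB2M, a methyltransferase and a transcription factor of mitochondria, had NRF1 at ranks 1937 and 2170 and SP1 at ranks 9217 and 33688. The gene NRF1 carried an NRF1 member of its own, at rank 2312 and 85 bp, and an SP1 summit at rank 21413. TK1, cytosolic thymidine kinase, had SP1 at rank 2783 and NRF1 below the set at rank 6539.

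The NRF1 list skips runs of peak numbers within chromosomes, which marked 18 regions with 55.3 Mb in all. They held 46 SP1 members, 2 NRF1 members and no shared site, and partners there may be missing. Without these regions 4.86% of SP1 members were shared and the genes with both, SP1 alone and NRF1 alone numbered 432, 1232 and 2624.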

How the data were processed

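The data were the authors' deposited lists of peak summits from ChIP-seq, 1 per antibody with treated and untreated samples joined, and the 16 SP1 and NRF1 samples have no values of their own in them. By the sample descriptions, the SP1 list covers both SP1 groups; the NRF1 list was assigned from the antibody in its name. The deposited score is a −log10 of p or of q, judged from its layout and its lowest value just above 2; which of the 2 is not given in the sources used here. The submitters' processing notes name hg38, cutadapt, Bowtie2, SAMtools 1.16.1, MACS3 and bedtools without saying how each was used. All summits lay within the hg38 chromosome lengths.

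From these lists the 4000 highest scores per antibody were taken. Shared means within 100 bp, promoter within 500 bp of the 5′ end of a protein-coding gene (GENCODE 44), and distal over 10 kb away. Motifs were exact copies on either strand within 50 bp of a summit, with flanks 400 bp to either side. The procedures were tested on simulated data. Named genes were, in each of 3 classes (both sets, SP1 without NRF1, NRF1 without SP1), among the 8 of highest rank, 10 known targets or relatives, and up to 4 per list of genes by rank. Some of these genes and sequences are not reported here. All 24 lists matched the annotation in full. The members and lists were chosen with earlier results of these data known. No tests were run, since the lists hold no replicates; intervals cover counting error only. Python 3.11.15, pandas 2.3.3, numpy 2.4.6 and pysam 0.24.0 were used.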

Additional observations from a re-analysis of the deposited data

How the results depend on the processing

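No paired analysis was possible because the lists join all samples of an antibody, and for the same reason no replicate could be left out. Of the values recomputed, 64 stayed within the interval of the reported value, or for counts of genes within 1.5 times of it, and 61 did not, and the share of pairs with SP1 upstream crossed 50% in 1 setting. With the 2000 highest summits per list, 1.6% of SP1 and 1.6% of NRF1 members were shared, pairs lay a median of 69 bp apart, SP1 was upstream in 65% of pairs, and 97 genes had both, 698 SP1 alone and 1589 NRF1 alone; 72.4% of unshared NRF1 members were at promoters, the NRF1 motif was at 36.1% of them and 3.12% of shared SP1 members, YY1 was near 21.7% and ZNF143 near 29.5% of unshared NRF1 and 60.5% of unshared SP1 members. With 8000, sharing was 14.7% in both sets, the median spacing 47 bp, and 1859 genes had both, above the 1577 with SP1 alone, and 3421 had NRF1 alone. Promoters then held 57.5% of unshared NRF1 and 32.4% of unshared SP1 members, the NRF1 motif was at 16% and 2.22% (shared SP1), the SP1 motif at 15.5% of unshared NRF1 members, YY1 near 32.4% and ZNF143 near 21% of these, and ZNF143 near 39.4% of unshared SP1 members. One summit per peak gave 48.5% for the last value. Sharing within 50 bp gave 2% in both sets, a median of 23 bp and SP1 upstream in 46% of pairs, below 50% where the other distances gave more. Within 250 bp it gave 10.2% of SP1, 10.3% of NRF1 members and 107 bp. Promoters of 250 bp held 29.8% of unshared SP1 and 57.1% of unshared NRF1 members, with 270 genes with both and SP1 upstream in 58.3%. Promoters of 1000 bp held 39.5% and 73%, and 75.5% of shared SP1 members. The 6-letter cores gave, for shared SP1, unshared SP1 and unshared NRF1 members, 13%, 1.5% and 34% for NRF1, and 46.9%, 24.1% and 42.7% for SP1. Within 100 bp the SP1 motif was at 35.4%, 17% and 29.7% of these classes, and the NRF1 motif at 17.2% of shared SP1 and 27.8% of unshared NRF1 members. Within 25 bp the SP1 motif was at 10.4%, 4.49% and 7.14%, and the NRF1 motif at 21.1% of unshared NRF1 members. With the 4000 highest YY1 and ZNF143 summits the 3 classes gave 21.9%, 13% and 6.57% for YY1, and 29.2%, 9.85% and 12.1% for ZNF143. The cause of these shifts was not tested. The unknown read depth limits what the length of a list, and so a missing partner, can show.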
